A study of Homo sapiens with 6 samples.

Results

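The long arm of chromosome 19 holds one of the densest collections of zinc finger genes in the human genome. The genes described here were chosen by symbol and position. They are the protein-coding genes named ZNF or ZFP followed by a digit that start at or beyond 28.5 Mb of chromosome 19 (GRCh37), without ZNF507, ZNF146, ZNF260 and ZNF565. The rule found 163 genes among the 57773 in the count table.

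RNA was sequenced from HEK293, an established line of human embryonic kidney cells, in 6 libraries that fall into 3 groups of 2. Cells received PX459, a plasmid that carries Cas9 and a resistance to puromycin, either without a guide (EV, for empty vector), with 4 guides against ZNF146 (sgZNF146), or with 4 guides against ZNF507 (sgZNF507). All 3 groups went through transfection, 36 hours of puromycin and an outgrowth to 2 weeks, so the EV cells share the selection and the plasmid but not the cutting. Transfection was transient and the harvested cells were populations, not single clones, so each library can mix edited and unedited cells. The comparisons ask which RNA levels differ once either zinc finger gene has been disrupted, and here they are read for the other zinc finger genes of the same arm.

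Most of these genes encode C2H2 zinc finger proteins, in which each finger folds around a zinc ion held by 2 cysteines and 2 histidines and a row of fingers reads a stretch of DNA. Many carry a KRAB box at the amino end. The KRAB box recruits the scaffold protein TRIM28, which in turn brings the histone methyltransferase SETDB1, HP1 proteins and deacetylases to the bound site, and the family is best known for silencing transposable elements. The genes arose largely by tandem duplication and therefore resemble each other in sequence.

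Library totals ranged from 22724439 to 28524025 counts. The targeted genes were read before the others. ZNF507 stood at 72.0 and 75.5 CPM (a gene's counts scaled to the library total that edgeR adjusts for composition) in EV, 71.3 and 73.3 in sgZNF146, and 47.2 and 48.7 in sgZNF507. It was lower in sgZNF507 than in EV by edgeR's quasi-likelihood test (log2 fold change -0.62, SE 0.07, adjusted p = 0.00195). ZNF146 stood at 115 and 105 CPM in EV, 99.2 and 103 in sgZNF146, and 88.4 and 101 in sgZNF507. The fitted log2 difference of sgZNF146 from EV was -0.13 (SE 0.08) and did not pass the test (adjusted p = 1.00), so the RNA level of ZNF146 alone gives no check of the sgZNF146 label, nor need an edit lower it. In sgZNF507 against EV the value of ZNF146 was -0.21 (SE 0.08, unadjusted p = 0.0162, adjusted p = 1.00). Of the HEK293 markers, 5 genes were read (VIM, NEFM, PAX2, KRT8 and KRT18) and summed to 1240 to 1399 CPM per library, while 6 markers of blood, endothelium, liver and fibroblasts (PTPRC, CD3E, LYZ, CDH5, ALB and COL3A1) summed to 13.1 to 15.8 CPM. VIM alone, at 1012 to 1147 CPM, held most of the HEK293 sum, and PAX2 stood at 5.25 to 8.03 CPM. CD3E was at 0 in 5 of the 6 libraries. LYZ (6.32 to 7.27 CPM) and COL3A1 (5.63 to 8.93 CPM) held most of the sum of the other markers.

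The 163 genes lie in 10 runs, if a new run is opened wherever consecutive starts are more than 1 Mb apart. ZNF536 stands alone on the centromere side of ZNF507. Another 5 genes, ZNF302 to ZNF792, lie between ZNF507 and ZNF146, and 157 lie beyond ZNF146. The largest runs are ZFP14 to ZNF573 with 26 genes, ZNF575 to ZNF296 with 23, ZNF175 to ZNF331 with 40 and ZNF628 to ZNF446 with 59. Of all 163, 91 are on the plus and 72 on the minus strand.

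Because the fingers resemble each other, the guide sequences were set against the exons of all 163 genes. The fourth ZNF146 target sequence is shown because it was the only one of 8 with a near match in them. It lies at chr19:36727736-36727754 (GRCh37, minus strand), in the coding exon of ZNF146, and is not followed by the NGG that Cas9 needs. On the other strand, extended to 20 bases with the genome's own sequence, the same site is followed by TGG. Capitals in the lines below mark bases that differ from the sequence searched, and positions count from 1 at the 5′ end.
ZNF146 target 4 as listed: tgaaggtttttccacactc
ZNF146 target 4, opposite strand: gagtgtggaaaaaccttcag
ZNF329, as listed: tgaaggtttttccacactc
ZNF160, opposite strand: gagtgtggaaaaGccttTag
ZNF606, opposite strand: gaAtgtggaaaaGccttTag
ZNF585B, opposite strand: gagtgtggGaaaGccttTag
ZNF473, opposite strand: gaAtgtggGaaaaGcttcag

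ZNF329 held the listed 19 bases without a mismatch at chr19:58639982-58640000 (plus strand, in a coding exon of this minus-strand gene). The next 3 bases there are TAG, and on the opposite strand the 20th base and the 3 that follow read ACCG, so neither reading has an NGG. ZNF160 carried the closest site with an NGG, with 2 differences (A13G and C18T) at chr19:53572735-53572754 (minus strand, coding). ZNF606 differed by G3A, A13G and C18T at chr19:58489727-58489746 (minus strand, coding), and ZNF382, ZNF473, ZNF845, ZNF585B, ZNF28, ZNF468, ZNF320 and ZNF837 also by 3 bases each. Of the sites with an NGG, only that of ZNF382 matches the sequence as listed, and the rest match the opposite strand. The sites of ZNF845, ZNF28, ZNF468 and ZNF320 lie in exons outside the annotated coding sequence. Near matches with an NGG at 3 or fewer differences were found in 10 of the 163 genes (6.13%), in 2 of 85 zinc finger genes of 19p (2.35%) and in 1 of 654 other protein-coding genes of the same stretch of 19q (0.153%). A match is a description of sequence, and whether any of these sites was cut was not tested.

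A KRAB box was recognised by its pattern in 134 of the 163 proteins. ZNF444 and ZNF446 matched only the pattern of a SCAN domain, which pairs proteins with each other, and 27 matched neither pattern. Genes are called KRAB or SCAN genes here by these patterns alone. Such patterns can miss a domain, so a gene without a match may still carry one. The number of C2H2 fingers found by pattern had a median of 12 and reached 29 in ZNF850. It was 0 in 3 genes, among them ZNF816-ZNF321P and ZFP36. ZFP36 met the symbol rule but is a CCCH zinc finger protein that binds AU-rich messenger RNA and speeds its decay, and it had no C2H2 finger. ZFP36 itself stood at 4.14 and 4.88 CPM in EV, 3.82 and 4.29 in sgZNF146, and 4.25 and 3.87 in sgZNF507, with overlap between the groups and log2 fold changes of -0.16 (SE 0.17) in both comparisons with EV.

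Nearly all of the genes were expressed, at low levels. At least 1 CPM was present in both EV libraries for 153 of 163, and 159 passed the filter on low counts and were tested. The 4 that did not were ZNF534 and ZNF816-ZNF321P, at 0 counts in every library, and ZNF541 and ZNF132, at no more than 3 counts in any. Together the 163 genes took 0.235% to 0.256% of a library's counts. Per kilobase of merged exon, the tested genes had a median of 2.13 CPM in EV, against 4.49 for the 14744 tested protein-coding genes. The other protein-coding genes of 19q had a median of 5.08 CPM per kb (448 tested), zinc finger genes of other chromosomes 3.997 (252 tested), and those of 19p 1.27 (74 tested).

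**Figure D1:**
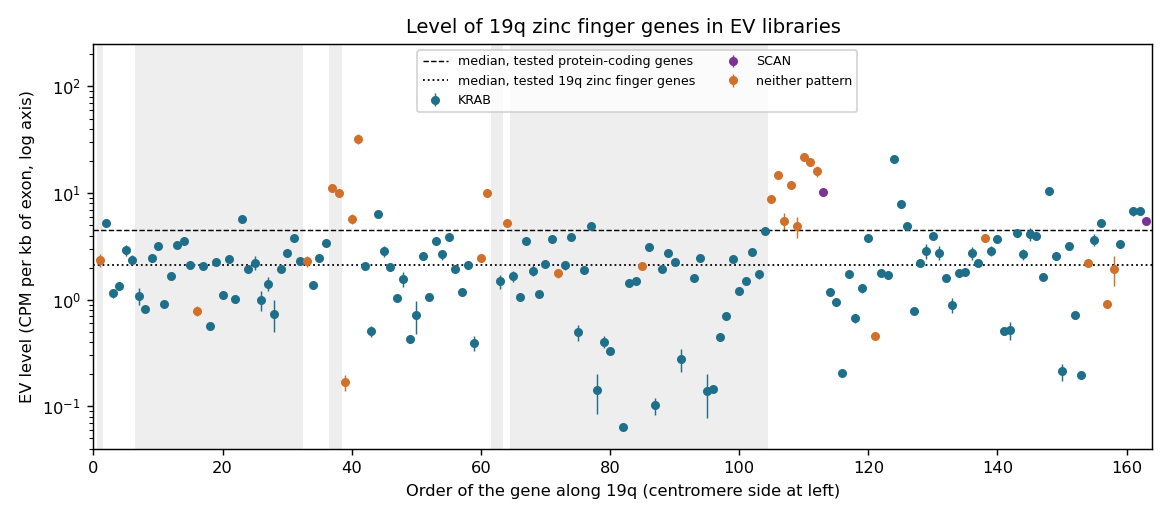
Mean level in the 2 EV libraries in CPM per kilobase of exon (log axis, bars are the SD) for the 159 tested 19q zinc finger genes, in their order along the arm, with alternate runs shaded. Most points fall below the dashed median of 4.49 for tested protein-coding genes, and the points above 10 are mostly genes without a KRAB or SCAN pattern.

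Genes without a match to the KRAB pattern were among the most abundant. All 134 KRAB genes together had a median of 1.93 CPM per kb in EV, with a highest value of 20.7, while the 27 with neither pattern had a median of 4.91 and a highest value of 32.2. ZNF444 and ZNF446, which matched only the SCAN pattern, had a median of 7.83. The 5 highest were ZNF428 at 32.2 ± 3.5 CPM per kb (SD, n = 2), ZNF580 at 21.97 ± 0.63, ZNF460 at 20.7 ± 0.15, ZNF581 at 19.5 ± 0.78 and ZNF787 at 16.0 ± 2.0. ZNF460 alone among them matched the KRAB pattern. Each step in this order was larger than the SDs of both neighbours together, though an SD over 2 libraries is itself imprecise. ZNF580 and ZNF581 overlap CCDC106 on the same strand in the annotation used for lengths, so reads may not always have been assignable to a single gene. At the other end, ZNF578 had 0.0644 CPM per kb, the lowest of the tested genes, and ZNF600 had 0.102. By run, the median in EV was lowest among the larger ones for ZNF175 to ZNF331 (1.63 CPM per kb) and higher for ZNF628 to ZNF446 (2.76). The KRAB median was 1.89 in sgZNF146 and 1.91 in sgZNF507, and the median of genes with neither pattern was 4.83 and 4.92. The merged exons used as length had a median of 6115 bases in KRAB genes and 3689 in genes with neither pattern. Levels by type with the longest transcript as length are not given here.

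None of the 159 tested genes passed the threshold of 0.05 in any of the 3 comparisons (edgeR's quasi-likelihood test on all 6 libraries, with p-values adjusted by Benjamini-Hochberg over 22010 genes). The smallest adjusted p among them was 1.00 in each. Over all tested genes, 0% were called in sgZNF146 against EV, 0.182% in sgZNF507 against EV and 0.173% in sgZNF507 against sgZNF146. DESeq2 on the same 6 libraries also called 0 of them in each comparison. It gave 0, 0 and 1 at an unadjusted p under 0.05, and its share over all genes is not given here. By edgeR at that unadjusted level there were 4 in sgZNF146 against EV (2.52%, beside 2.43% of all genes), 1 in sgZNF507 against EV (0.629%, beside 3.39%) and 3 in sgZNF507 against sgZNF146 (1.89%, beside 4.03%). A fitted change of over 1.5-fold was seen in 1, 0 and 1 of them, while 4.77%, 5.48% and 5.45% of all genes went that far. Both comparisons with EV share the 2 EV libraries and are not independent of each other.

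The precision behind these counts varied with the level of the gene. The 95% interval of the log2 fold change lay within 1.5-fold in either direction for 134 of 159 genes in sgZNF146 against EV and for 134 in sgZNF507 against EV, and within 2-fold for 154 in each. Of the 128 genes with at least 5 CPM in EV, 123 and 125 had intervals within 1.5-fold. In both comparisons ZNF575, ZNF610, ZNF578 and ZNF415 had wider intervals than 2-fold, as did ZNF600 in the former and ZNF888 in the latter. The median SE over the 159 was 0.12, and the median absolute log2 ratio between the replicates of a group was 0.112 in EV, 0.121 in sgZNF146 and 0.130 in sgZNF507.

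**Figure D2:**
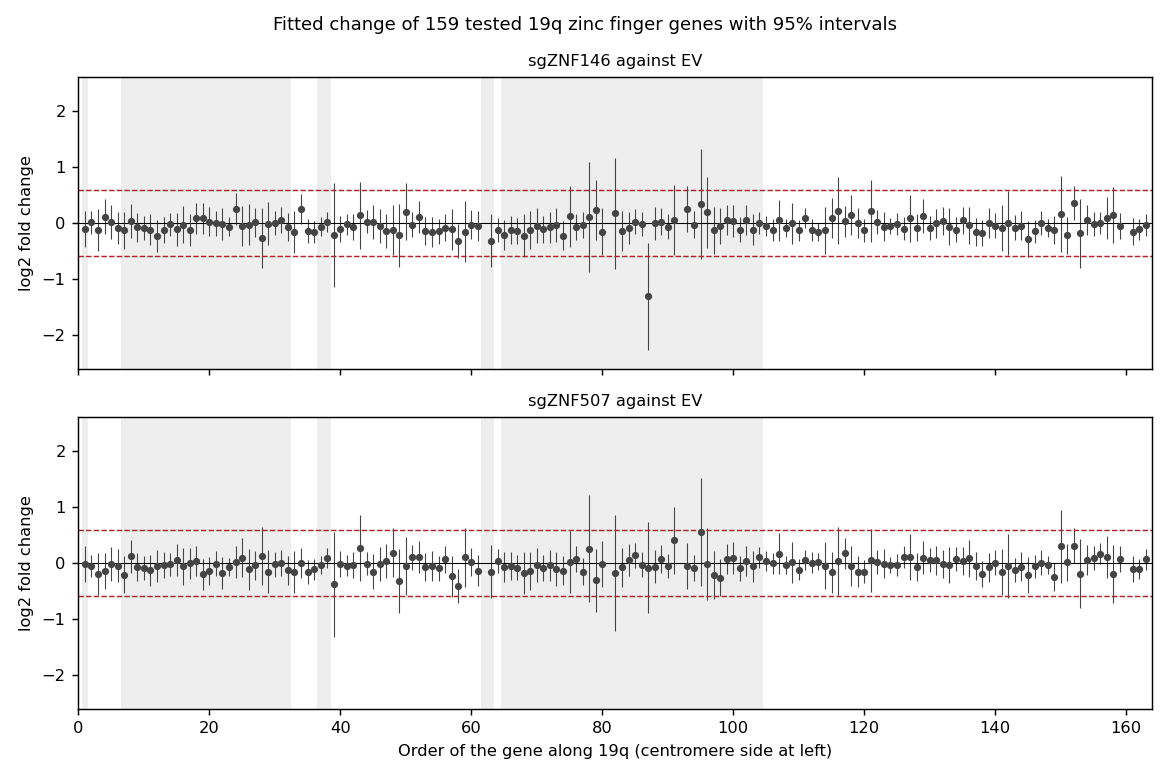
Fitted log2 fold change against EV with its 95% interval for each of the 159 tested genes in their order along 19q, in sgZNF146 (top) and sgZNF507 (bottom), with dashed lines at 1.5-fold and alternate runs shaded. Only ZNF600 in sgZNF146 lies beyond a dashed line, and the widest intervals belong to genes with few counts.

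In sgZNF146 the largest difference from EV was that of ZNF600, a KRAB gene with 18 fingers at chr19:53253195-53290060 (minus strand), which falls below the 1 CPM asked of named genes and was picked out after its values were seen. It had 16 and 23 counts in EV, 8 and 7 in sgZNF146, and 19 and 17 in sgZNF507. Both sgZNF146 libraries thus lay below the other 4. The log2 fold change was -1.31 (SE 0.44, unadjusted p = 0.0111, adjusted p = 1.00), with a 95% interval from -2.26 to -0.35, and it rests on fewer than 25 counts in each library. In sgZNF507 against sgZNF146 the log2 fold change of ZNF600 was 1.22 (SE 0.44, unadjusted p = 0.0173, adjusted p = 1.00).

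ZNF606, a KRAB gene with 13 fingers at chr19:58488444-58514717 (minus strand), had the highest fitted log2 fold change in sgZNF146. Its levels were 5.66 and 5.17 CPM in EV, 6.82 and 7.07 in sgZNF146, and 6.86 and 6.56 in sgZNF507. All 4 libraries of cut cells lay above both EV libraries. The log2 fold change was 0.36 (SE 0.14, unadjusted p = 0.0264, adjusted p = 1.00) in sgZNF146 and 0.31 (SE 0.14, unadjusted p = 0.0516) in sgZNF507. ZNF606 is among the genes with a near match to the fourth ZNF146 target, and whether that site was cut was not tested.

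ZNF112, at chr19:44830708-44871377 (minus strand, KRAB, 13 fingers), had the lowest fitted value among genes named by the rule in both comparisons with EV. It stood at 8.68 and 7.70 CPM in EV, 6.86 and 6.32 in sgZNF146, and 5.90 and 6.32 in sgZNF507, so all cut libraries lay below both EV libraries. The log2 fold change was -0.31 (SE 0.14, unadjusted p = 0.0451) in sgZNF146 and -0.42 (SE 0.14, unadjusted p = 0.0113, adjusted p = 1.00) in sgZNF507. In the annotation used for lengths, ZNF112 overlaps an unnamed gene on its own strand. It shares 11.5% of its 50-base stretches with transcripts of other genes. Its counts may therefore be less certain than those of ZNF606, which shares none.

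ZNF444, a SCAN gene at chr19:56643968-56672262 (plus strand), is among the more abundant and was read with the smallest error of those named for a change. It stood at 69.3 and 75.5 CPM in EV, 65.8 and 63.8 in sgZNF146, and 75.03 and 71.98 in sgZNF507. The sgZNF146 libraries were lowest, and EV and sgZNF507 overlapped. The log2 fold change was -0.16 (SE 0.07, unadjusted p = 0.0432) in sgZNF146 against EV and 0.18 (SE 0.07, unadjusted p = 0.0251) in sgZNF507 against sgZNF146, neither past the threshold after adjustment.

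**Figure D3:**
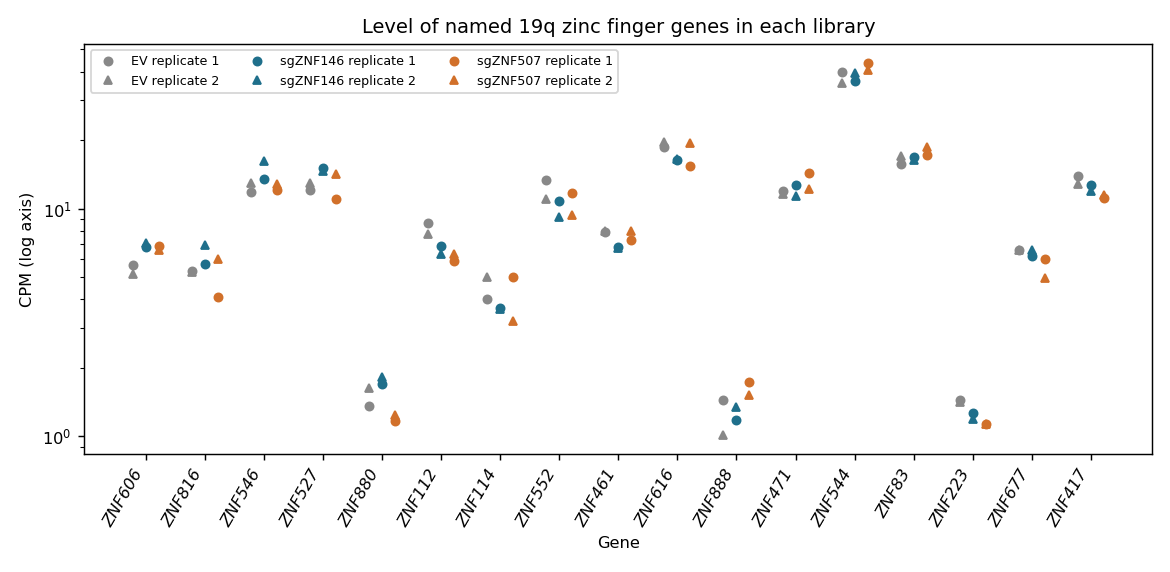
Level in CPM (log axis) of the 17 genes named by the rule on largest changes against EV, with grey, blue and orange points for the EV, sgZNF146 and sgZNF507 libraries, circles for replicate 1 and triangles for replicate 2. In ZNF606 all 4 cut libraries lie above EV and in ZNF112 all 4 lie below, while ZNF816 and ZNF527 span the EV values in sgZNF507.

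The other genes named for values above EV in sgZNF146, without overlap, were ZNF816, ZNF546, ZNF527 and ZNF880, with log2 fold changes of 0.23 to 0.25. ZNF546 stood at 11.9 and 13.0 CPM in EV, 13.5 and 16.2 in sgZNF146, and 12.1 and 12.8 in sgZNF507. ZNF527 stood at 12.1 and 13.0 in EV, 15.1 and 14.7 in sgZNF146, and 11.1 and 14.2 in sgZNF507, where it overlapped EV. ZNF816 stood at 5.30 and 5.28 CPM in EV and at 5.71 and 6.92 in sgZNF146, with 14.1% of its 50-base stretches shared. Those named for values below EV were ZNF114, ZNF552, ZNF461 and ZNF616, at -0.31 to -0.22. ZNF461 had close replicates, with 7.91 and 7.99 CPM in EV and 6.82 and 6.72 in sgZNF146, a log2 fold change of -0.23 (SE 0.13). ZNF552 had 13.4 and 11.0 CPM in EV and 10.8 and 9.22 in sgZNF146, where the gap between EV replicates exceeded the gap between the groups. None passed the test.

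In sgZNF507 the named genes above EV, besides ZNF606, were ZNF888, ZNF471, ZNF544 and ZNF83, with log2 fold changes from 0.14 to 0.41. ZNF544 is the most abundant of them, with 39.8 and 35.6 CPM in EV, 36.3 and 39.3 in sgZNF146, and 43.8 and 40.7 in sgZNF507 (log2 fold change 0.16, SE 0.09, unadjusted p = 0.0879). ZNF888, at 1.45 and 1.01 CPM in EV and 1.74 and 1.52 in sgZNF507, had an SE of 0.27. Below EV, besides ZNF112, were ZNF223, ZNF880, ZNF677 and ZNF417, from -0.33 to -0.25. ZNF417 stood at 13.98 and 12.9 CPM in EV, 12.8 and 11.96 in sgZNF146, and 11.1 and 11.5 in sgZNF507 (log2 fold change -0.25, SE 0.11, unadjusted p = 0.0509). ZNF417 shares 37.9% and ZNF223 62.4% of their 50-base stretches with other genes, and their values are uncertain to that extent.

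Directly compared, sgZNF507 lay above sgZNF146 without overlap for ZNF540, ZNF888, ZNF222, ZNF304 and ZNF444, and below for ZNF880, ZNF420, ZNF284, ZNF599 and ZNF546. ZNF880, at 1.37 and 1.63 CPM in EV, 1.69 and 1.83 in sgZNF146, and 1.17 and 1.24 in sgZNF507, had the lowest log2 fold change (-0.54, SE 0.25, unadjusted p = 0.0537). ZNF420, at 9.34 and 10.1 CPM in sgZNF146 and 7.59 and 8.29 in sgZNF507, had -0.29 (SE 0.13, unadjusted p = 0.0436). ZNF304 stood at 20.4 and 21.7 CPM in sgZNF146 and at 24.1 and 24.3 in sgZNF507, with EV between them at 22.7 and 22.4 (log2 fold change 0.20, SE 0.09). None of these passed the test after adjustment.

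Although no single gene passed, the fitted values of the members lay slightly below zero in both comparisons with EV. In sgZNF146 the median log2 fold change was -0.05, with 51 genes above and 108 below zero, beside a median of -0.0013 over all tested genes. Both sgZNF146 libraries lay below both EV libraries for 47 of 159 genes (29.6%), against a background of 14.6%, and above for 12 (7.55%), against 14.0%. The other protein-coding genes of 19q had a median of -0.06 with 28.6% wholly below and 6.70% wholly above. Zinc finger genes of 19p lay the other way, with a median of 0.06, 14.9% below and 37.8% above, and those of other chromosomes were near zero, with a median of 0.01. In sgZNF507 the median of the members was -0.04, with 57 above and 102 below zero, beside -0.0032 over all genes. Here 33 genes (20.8%) lay wholly below EV, against a background of 15.3%, and 17 (10.7%) wholly above, against 14.0%. The other protein-coding genes of 19q had a median of -0.02, with 14.5% wholly below and 10.9% wholly above. For zinc finger genes of 19p these shares were 14.9% and 20.3%, and for those of other chromosomes 13.9% and 13.1%. In sgZNF507 against sgZNF146 the median was 0.01, with 29 genes wholly above (18.2%, background 15.5%) and 19 wholly below (11.9%, background 16.5%). Of the other protein-coding genes of 19q, 24.1% lay wholly above and 10.9% wholly below. For zinc finger genes of 19p these shares were 12.2% and 21.6%, and for those of other chromosomes 19.4% and 13.5%.

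**Figure D4:**
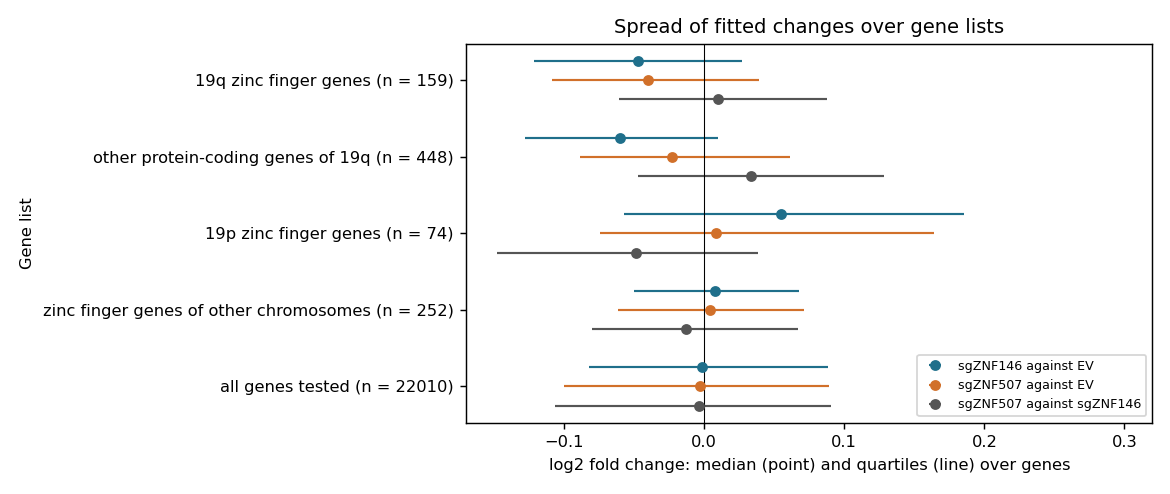
Median (point) and quartiles (line) of the log2 fold change over the genes of each list for the 3 comparisons. In sgZNF146 against EV the medians of the 19q zinc finger genes (-0.05) and of the other 19q genes (-0.06) lie below zero and that of the 19p zinc finger genes (0.06) above.

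The size of these medians is close to the spread between replicate libraries. Set against the mean of the EV libraries, the median over the members was -0.07 and -0.02 in the sgZNF146 libraries, -0.08 and 0.00 in the sgZNF507 libraries, and 0.01 and -0.01 in the EV libraries themselves. In sgZNF507 only replicate 1 lay below zero, and without that library the median was -0.0019. In sgZNF146 both libraries lay below, and the median stayed between -0.07 and -0.03 whichever library was left out. The members' summed level was 2536 and 2557 CPM in EV, 2421 and 2480 in sgZNF146, and 2465 and 2525 in sgZNF507. Genes of one arm share libraries and are not replicates, and no test was made of these medians.

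Values are given next by position relative to the cut genes. ZNF536, the member nearest to ZNF507 on the centromere side, had log2 fold changes of -0.10 (SE 0.15) in sgZNF146 and -0.02 (SE 0.15) in sgZNF507. Between ZNF507 and ZNF146, the 5 genes ZNF302, ZNF181, ZNF599, ZNF30 and ZNF792 had a median of 0.01 in sgZNF146 and -0.06 in sgZNF507, where all 5 lay below zero. ZNF302, the most abundant of them, stood at 25.2 and 27.7 CPM in EV, 26.6 and 26.8 in sgZNF146, and 24.6 and 26.2 in sgZNF507, with overlap in both comparisons with EV. Immediately beyond ZNF146, ZFP14, ZFP82 and ZNF566 had -0.13, 0.04 and -0.08 in sgZNF146, with SEs of 0.12 to 0.15 and overlapping groups. Beyond ZNF146 as a whole, the 153 tested genes had medians of -0.05 and -0.04. Among the larger runs, the median in sgZNF146 was -0.03 for ZFP14 to ZNF573, -0.08 for ZNF575 to ZNF296, -0.04 for ZNF175 to ZNF331 and -0.04 for ZNF628 to ZNF446. In sgZNF507 the same runs had -0.05, -0.03, -0.06 and -0.01.

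Values are given last by protein type, as assigned by pattern. In sgZNF146 the median was -0.05 over the 131 tested KRAB genes, -0.05 over the 26 with neither pattern and -0.10 over the 2 SCAN genes, ZNF444 and ZNF446. In sgZNF507 it was -0.05 over KRAB genes, -0.01 over those with neither pattern and 0.04 over the SCAN genes. The types were not tested against each other. Called genes numbered 0 in every type and comparison.

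The 11 genes with a match to the fourth ZNF146 target had, in sgZNF146 against EV, 5 log2 fold changes above and 6 below zero, with a median of -0.0036 and a range from -0.12 to 0.36. ZNF329, with the exact copy, stood at 9.52 and 9.62 CPM in EV, 9.65 and 10.2 in sgZNF146, and 10.02 and 9.84 in sgZNF507. Its fitted change in sgZNF146 was 0.05 on the log2 scale (SE 0.12), with an interval from -0.21 to 0.32. ZNF160, with the closest site next to an NGG, stood at 20.8 and 20.8 CPM in EV, 18.95 and 21.7 in sgZNF146, and 17.97 and 20.9 in sgZNF507. The groups overlapped, at a fitted log2 difference of -0.03 (SE 0.11) in sgZNF146. ZNF606, described above, was the only one of the 11 with an unadjusted p under 0.05. In sgZNF507, which received no ZNF146 guide, the same 11 had a median of -0.02 and a range from -0.20 to 0.31. Cutting at these sites was not tested.

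**Figure D5:**
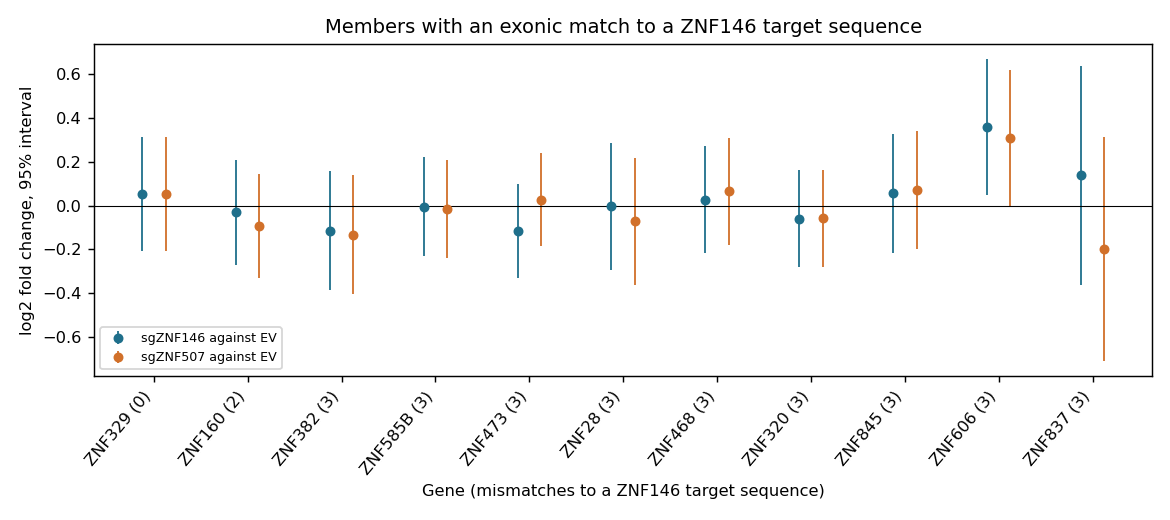
Fitted log2 fold change with its 95% interval in sgZNF146 (blue) and sgZNF507 (orange) against EV for the 11 genes whose exons match the fourth ZNF146 target sequence, ordered by the number of mismatches. All intervals include zero except that of ZNF606 in sgZNF146.

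The partners of KRAB proteins were read from a list of co-repressor genes, of which only CBX5 passed the threshold, and only with the replicate number as a block. TRIM28, the KRAB scaffold, which lies on the same arm beyond the last member, stood at 930 and 941 CPM in EV, 897 and 867 in sgZNF146, and 948 and 886 in sgZNF507. The groups overlapped in sgZNF507 only, with fitted log2 fold changes of -0.09 (SE 0.06) in sgZNF146 and -0.03 (SE 0.06) in sgZNF507. SETDB1, which methylates histone H3 at TRIM28-bound sites, had 0.01 (SE 0.06) in both. Of the 19 co-repressor genes read, 0 passed the threshold in any comparison without the block, and their medians were -0.0044, -0.0044 and 0.0048. By edgeR 1, 0 and 3 of them had an unadjusted p under 0.05, beside 2.43%, 3.39% and 4.03% of all tested genes. CBX5, which encodes HP1 alpha, was the one in sgZNF146 against EV and among the 3 in sgZNF507 against sgZNF146. It stood at 339 and 344 CPM in EV, 376 and 412 in sgZNF146, and 310 and 361 in sgZNF507. The log2 fold change was 0.21 (SE 0.08, unadjusted p = 0.0205, adjusted p = 1.00) in sgZNF146 against EV and -0.23 (SE 0.08, unadjusted p = 0.0107, adjusted p = 1.00) in sgZNF507 against sgZNF146. With the block in edgeR the latter was -0.23 with an adjusted p of 0.0268, and the former had an adjusted p of 0.221. Leaving out each library in turn, without the block, gave -0.34 to -0.13 for sgZNF507 against sgZNF146. The ends of this range came on leaving out sgZNF507 replicate 2 (-0.34) and sgZNF507 replicate 1 (-0.13). CBX5 was named after its values were seen.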

How the data were processed

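RNA was isolated in biological duplicate and sequenced as 50 bp strand-specific paired ends after ribosome depletion. The authors mapped reads to hg19 (GRCh37) with TopHat2 and counted them per gene of Ensembl release 82 with featureCounts, per the labels and the paper's methods, and the deposited counts are integers per gene, neither normalized nor pooled. Versions of TopHat2 and featureCounts were not given in the sources used here. Groups were taken from the sample titles.

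Counts were tested with edgeR 4.0.16 (R 4.3.3) on all 6 libraries after filterByExpr and TMM, with Benjamini-Hochberg adjustment over 22010 genes and a threshold of 0.05. SEs came from the F statistic and are approximate. CPM used TMM-adjusted totals, and lengths were merged exons of GENCODE release 44 lifted to GRCh37, which matched 96.1% of identifiers. A further 2 annotated genes that meet the rule were not analysed here, nor were UHRF1, NEFL and PECAM1 of the fixed lists, which matched no row. KRAB, SCAN and C2H2 patterns were searched in proteins translated from the canonical coding sequences of that annotation, because no protein table was used, and such patterns can miss degenerate domains. Target sequences were searched in exons on both strands at up to 3 mismatches. Shared 50-base stretches and overlapping genes mark uncertain counts. PCR duplicates were not removed by molecular identifiers. Intervals cover the spread between these libraries only, with 2 libraries in each group.

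The members and lists were chosen with earlier results of these data known. Genes were named by rule. These were, per comparison, the 5 largest changes in each direction among genes averaging at least 1 CPM whose groups did not overlap, the 5 highest levels, the neighbours of ZNF507 and ZNF146, the genes with target matches, ZFP36, TRIM28 and any gene past the threshold. ZNF600, ZNF415, ZNF575, ZNF610, ZNF578, ZNF850, SETDB1, CBX5 and the 4 untested genes were named after their values were seen. Alternatives were DESeq2 size factors, upper quartile scaling, no filter, at least 10 counts in every library, DESeq2 1.42.0, the 4 libraries compared only, the replicate number as a block, leaving out each library, and the longest transcript as length. The steps were tested on simulated counts in which 200 of 21516 genes were changed 2-fold in sgZNF507. Against EV, 165 of the 200 were recovered, with 7 false calls, and the comparison of sgZNF146 with EV gave 0 false calls. Genes with the lowest counts were not among those changed. Figures were drawn with matplotlib 3.10.9 (Python 3.11.15).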

Additional observations from a re-analysis of the deposited data

How the results depend on the processing

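Under all 13 alternatives of scaling, filter, tool and libraries, 0 of the tested 19q zinc finger genes passed the threshold in any comparison. Those with an unadjusted p under 0.05 numbered 0 to 9 in sgZNF146 against EV, 0 to 6 in sgZNF507 against EV and 1 to 12 in sgZNF507 against sgZNF146. The highest counts came under the replicate block. The share of all genes at that level under each alternative is not given here. These counts are therefore not read as a result about the members. Replicate numbers are shared by all groups, but only 2 pairs exist per comparison and nothing in the labels ties them to a shared day. Deviations of same-numbered libraries correlated at 0.138 (EV and sgZNF146), 0.176 (EV and sgZNF507) and 0.145 (sgZNF146 and sgZNF507) across 22010 genes. Each exceeds the correlation threshold of 0.1 set for the block, while the main fit has no block. Under the replicate block the members' medians were -0.05, -0.04 and 0.0080, and 1 co-repressor gene, CBX5, passed in sgZNF507 against sgZNF146, while the block changed no other call reported here.

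Leaving out each library in turn, the members' median log2 fold change ranged from -0.07 to -0.03 in sgZNF146 against EV, from -0.07 to -0.0019 in sgZNF507 against EV and from -0.0069 to 0.04 in sgZNF507 against sgZNF146, so the last has no stable direction. When a library is left out, the lone one of its group is assumed to vary like the others. Genes named for a change were chosen for groups that do not overlap, which largely fixes their direction, so their 390 values under the alternatives say little about stability. For the other named members, 105 of 1047 values under the alternatives had the opposite sign to the value reported, and 0 passed the threshold. Of 432 medians by run or protein type 19 moved by more than the spread between libraries, each on leaving out a library. With the longest annotated transcript as length, the median EV level was 2.58 CPM per kb in place of 2.10 over all 163 genes. For low genes such as ZNF578, the 95% interval includes changes of over 2-fold.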
